A study of Saccharomyces cerevisiae with 8 samples.

Results

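The 10 genes described here code for secreted enzymes and related proteins of the cell wall of budding yeast, Saccharomyces cerevisiae. They are 6 glucanases or glucanase relatives (SCW4, SCW10, SCW11, BGL2, EXG1 and DSE4) and the SUN family of 4 (SIM1, SUN4, UTH1 and NCA3). They were picked by name out of 6713 measured transcripts, with the difference between cured and prion cells in preSPO medium already known for these data. That difference is therefore given below as a description and is not tested. All 10 genes were among the 6346 transcripts that passed the filter on low counts.

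The libraries were made from oligo-dT-selected RNA of BY4743, a diploid laboratory strain. The genotype is given as wild type in every group and was not tested here. Cured cells had been selectively rid of [SMAUG+], and prion cells carried the natural [SMAUG+] state and were otherwise untreated. [SMAUG+] is a heritable form of Vts1, the yeast relative of the RNA-binding protein Smaug. Each state was sampled after 14 h in SPO medium, the sporulation medium, and before it, at saturation after 48 h in preSPO medium. The 4 groups, cured SPO, prion SPO, cured preSPO and prion preSPO, hold 2 libraries each. By the labels a 10 ml culture gave both a preSPO and an SPO sample, with 5 ml harvested for the first. The labels do not say how many cured clones the libraries stand for. The series' design text also speaks of VTS1 overexpression and deletion, which no sample label names.

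The yeast wall is a mesh of beta-1,3-glucan, bound to beta-1,6-glucan, chitin and mannoproteins. Glucanases cut this mesh and some of them rejoin the cut chains, so that the wall can be loosened, remodelled and, at the end of division, opened to part the daughter from the mother. In diploids that sporulate, a new spore wall is laid down around each meiotic product. The SUN family is named from the initials of its members, and its proteins act in the wall and the septum and, for UTH1 and NCA3, have also been tied to mitochondria.

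Total estimated counts ran from 4650288 to 71684771 per library, and the first principal component, with 80.4% of the variance, separated SPO from preSPO libraries. TAR1, a gene within the ribosomal DNA, took 10.6% to 14.8% of the counts in SPO and 3.18% to 8.22% in preSPO libraries, with the highest preSPO share in prion replicate 2. Replicate 2 of prion preSPO stood apart from the other 3 preSPO libraries, with a score of -42.1 against -63.7 to -51.0, on the side of the SPO libraries, which scored 51.7 to 56.8. MET17, a sulfur assimilation gene that separated the states in preSPO medium (0 and 1 counts in cured, 3207 and 3867 counts in prion libraries), gave 447 and 13 counts in cured SPO and 1363 and 1 counts in prion SPO libraries 1 and 2. By this gene alone, replicate 1 of cured SPO and replicate 2 of prion SPO go against their state labels. Results on the states in SPO medium are therefore read library by library. Whether MET17 follows the [SMAUG+] state or another difference between the cultures was not tested. Late spore wall markers summed to 1245 to 2478 CPM (counts normalised for depth, as described below) in SPO and 24.9 to 31.7 CPM in preSPO libraries, none of the 5 at 0. SPS100 made up most of that sum, with 1181 to 2439 CPM in SPO and 5.50 to 7.91 CPM in preSPO libraries, while of the same 5 DIT1 was lower in SPO medium, at -0.54 on the log2 scale over both states (edgeR, adjusted p = 0.0123), and DIT2 did not pass (0.29, adjusted p = 0.477). The 5 middle meiosis markers summed to 83.0 to 96.3 CPM in SPO and 50.8 to 85.5 CPM in preSPO libraries, which overlapped, with 3 of them higher and SPO21 lower (-0.77, adjusted p = 0.00214). The 5 early meiosis markers summed to 108 to 125 CPM in SPO and 46.8 to 56.8 CPM in preSPO libraries, also with none at 0. The 7 markers of haploid cells summed to 66.0 to 71.8 CPM in SPO and 36.0 to 58.0 CPM in preSPO libraries, with MFA1, an a-factor gene, at 0 in all 8. Among these markers STE3 (1.48, edgeR, adjusted p = 0.000168) and HO (1.95, edgeR, adjusted p = 0.00163) were higher in SPO medium over both states. No other haploid marker passed the test. The part of TAR1 and of these marker changes in the results on the medium was not tested. In RNA from whole cultures, fewer cells of a type and less RNA per cell cannot be told apart.

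Levels are given as CPM scaled by the trimmed mean of M values (TMM), in the order replicate 1, replicate 2, with the mean ± SD of the 2 libraries. Differences between groups are log2 values ± SE from one edgeR quasi-likelihood fit over the 4 groups, with p-values adjusted by Benjamini-Hochberg over all 6346 transcripts. The SE was taken as the absolute log2 value divided by the square root of the F statistic. With 2 libraries a group, these p-values rest on the spread between the libraries at hand. That spread is pooled over the 4 groups and drawn toward the trend over all transcripts.

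**Figure D1:**
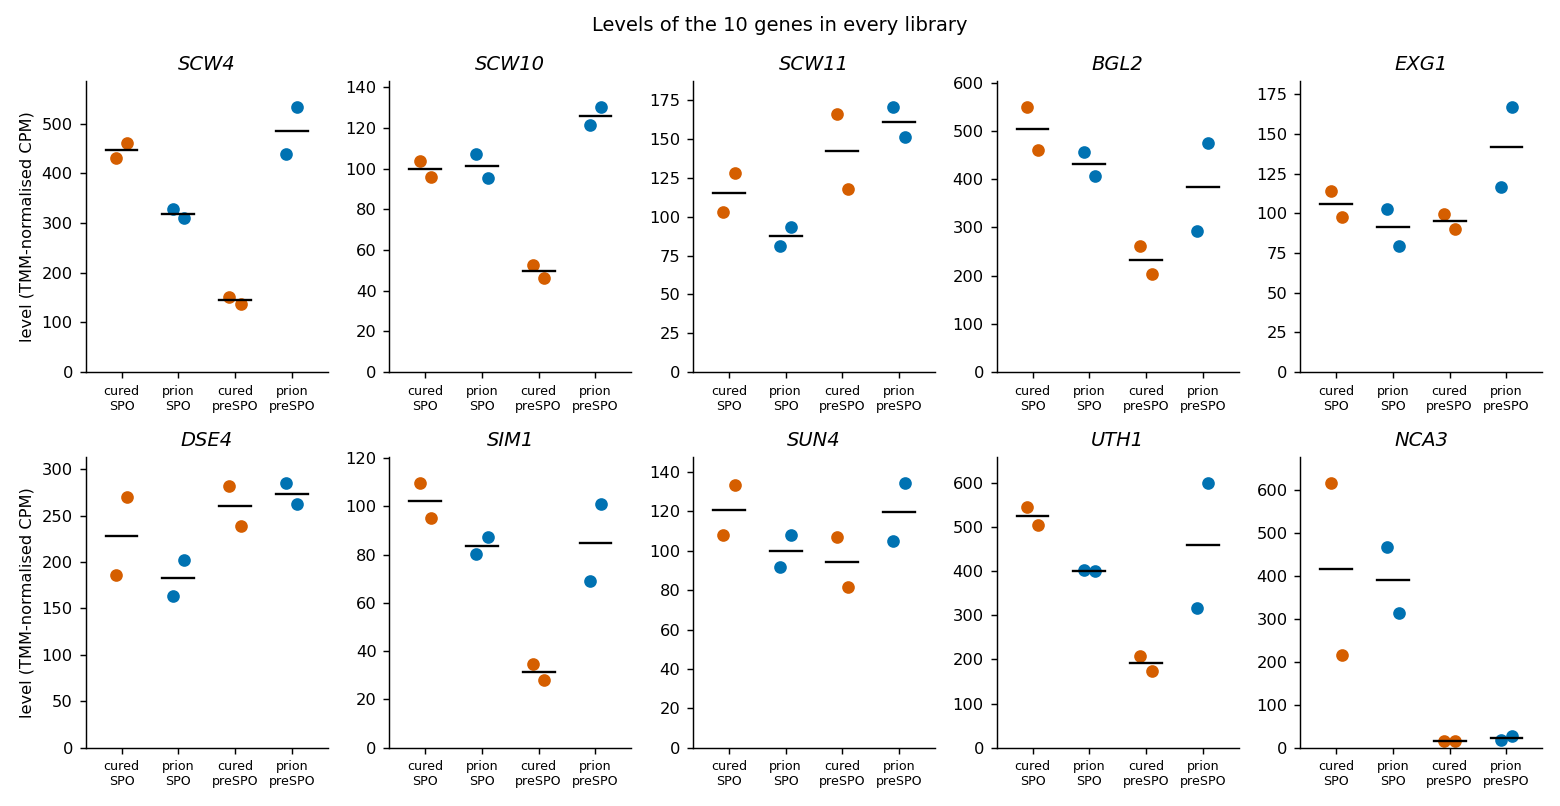
Level of each gene in every library, as TMM-normalised CPM on axes that start at 0, with cured libraries in orange, prion libraries in blue and the group mean as a bar. SCW4, SCW10, SIM1 and UTH1 have their lowest points in cured preSPO libraries, and NCA3 is at 216 to 615 CPM in SPO and at 14.5 to 27.6 CPM in preSPO libraries.

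SCW4 (YGR279C) codes for a wall protein of glycoside hydrolase family 17, related to glucanases. Its level was 431 and 462 CPM (446 ± 21.7) in cured SPO, 328 and 310 CPM (319 ± 12.8) in prion SPO libraries, 151 and 138 CPM (145 ± 9.57) in cured preSPO and 440 and 533 CPM (486 ± 66.0) in prion preSPO libraries. The cured preSPO libraries were the lowest of the 8 and stood apart from all others. The order of the other 3 groups, from low to high, was prion SPO, cured SPO and prion preSPO, and the levels of cured SPO and prion preSPO overlapped. In preSPO medium the difference was -1.75 ± 0.189, cured minus prion.

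SCW10 (YMR305C), the paralog of SCW4 in the same family, had 104 and 95.9 CPM (99.8 ± 5.46) in cured SPO and 107 and 95.5 CPM (101 ± 8.13) in prion SPO libraries. It had 52.7 and 46.3 CPM (49.5 ± 4.53) in cured preSPO and 121 and 130 CPM (126 ± 6.09) in prion preSPO libraries. Cured preSPO libraries were again the lowest and prion preSPO libraries the highest, with both SPO groups between them and overlapping each other. The preSPO difference was -1.35 ± 0.160, cured minus prion.

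SCW11 (YGL028C), another relative in the family that is known for expression in daughter cells, had 103 and 128 CPM (115 ± 18.0) in cured SPO and 81.4 and 93.6 CPM (87.5 ± 8.60) in prion SPO libraries. In preSPO medium it had 166 and 118 CPM (142 ± 34.1) in cured and 170 and 152 CPM (161 ± 13.2) in prion libraries, which overlapped. The preSPO difference of SCW11, -0.18 ± 0.213, was smaller than its SE, unlike those of SCW4 and SCW10.

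BGL2 (YGR282C) codes for the major endo-beta-1,3-glucanase of the wall, which also rejoins glucan chains. It had 548 and 459 CPM (504 ± 63.0) in cured SPO, 456 and 407 CPM (431 ± 34.4) in prion SPO libraries, 262 and 203 CPM (232 ± 41.3) in cured preSPO and 293 and 475 CPM (384 ± 128) in prion preSPO libraries. Cured preSPO was the lowest group, but prion preSPO replicate 1 lay close to it while replicate 2 lay within the range of the SPO libraries. The preSPO difference was -0.73 ± 0.263, and -0.34 without prion preSPO replicate 2.

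EXG1 (YLR300W) codes for the major secreted exo-1,3-beta-glucanase. Its level was 114 and 97.9 CPM (106 ± 11.6) in cured SPO, 103 and 79.6 CPM (91.2 ± 16.5) in prion SPO libraries, 99.8 and 90.1 CPM (95 ± 6.84) in cured preSPO and 117 and 167 CPM (142 ± 35.4) in prion preSPO libraries. The cured SPO, prion SPO and cured preSPO groups overlapped one another, and prion preSPO replicate 2 was the highest library. The preSPO difference was -0.58 ± 0.220, and -0.30 without that library.

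DSE4 (YNR067C), also called ENG1, codes for the daughter-specific endo-1,3-beta-glucanase that helps to dissolve the septum. It had 186 and 270 CPM (228 ± 59.0) in cured SPO, 163 and 203 CPM (183 ± 27.8) in prion SPO libraries, 282 and 238 CPM (260 ± 30.7) in cured preSPO and 285 and 262 CPM (273 ± 16.1) in prion preSPO libraries. Prion SPO lay below both preSPO groups, and cured SPO overlapped the other 3 groups. Its preSPO difference was the smallest of the 10, -0.07 ± 0.225.

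SIM1 (YIL123W), a SUN protein of the wall, had 109.5 and 95.2 CPM (102 ± 10.1) in cured SPO, 80.2 and 87.2 CPM (83.7 ± 5.00) in prion SPO libraries, 34.7 and 28 CPM (31.4 ± 4.79) in cured preSPO and 69 and 101 CPM (84.9 ± 22.5) in prion preSPO libraries. Both cured preSPO libraries lay below all 6 others, and the other groups were within 69 to 109.5 CPM. The preSPO difference was -1.45 ± 0.218, cured minus prion.

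SUN4 (YNL066W), which acts in septum formation and separation, was the steadiest of the 10. It had 108 and 134 CPM (121 ± 18.2) in cured SPO, 91.8 and 108 CPM (99.9 ± 11.5) in prion SPO libraries, 107 and 81.7 CPM (94.4 ± 18.0) in cured preSPO and 105 and 134 CPM (120 ± 20.8) in prion preSPO libraries. No group of SUN4 stood clear of all others. Its preSPO difference was -0.34 ± 0.214, and -0.15 without prion preSPO replicate 2.

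UTH1 (YKR042W), a SUN protein found in the wall and reported at the mitochondrial outer membrane, had 544 and 504 CPM (524 ± 28) in cured SPO and 402 and 399 CPM (401 ± 1.48) in prion SPO libraries. In preSPO medium it had 208 and 174 CPM (191 ± 23.5) in cured and 317 and 599 CPM (458 ± 199) in prion libraries. Cured preSPO libraries were the lowest of the 8, and the 2 prion preSPO libraries bracketed the whole range of the SPO libraries. The preSPO difference was -1.26 ± 0.287, and -0.73 without prion preSPO replicate 2.

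NCA3 (YJL116C), which acts with NCA2 in the expression of mitochondrial ATP synthase subunits, had the widest range of the family. It had 615 and 216 CPM (416 ± 283) in cured SPO, 467 and 313 CPM (390 ± 109) in prion SPO libraries, 14.5 and 15.7 CPM (15.1 ± 0.853) in cured preSPO and 17.9 and 27.6 CPM (22.8 ± 6.84) in prion preSPO libraries. All 4 SPO libraries lay far above all 4 preSPO libraries, and the 2 SPO groups overlapped. Its preSPO difference was -0.59 ± 0.465, close to its error, and -0.24 without prion preSPO replicate 2.

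Seen over the set, all 10 genes had a negative difference in preSPO medium, cured minus prion, on the TMM scale. DSE4 was at 0.03 on log2(TPM + 1), and without cured preSPO replicate 2 DSE4 was at 0.04 and SCW11 at 0.05. In 7 of them both cured libraries lay below both prion libraries, which held for 23.9% of all transcripts, and SCW11, DSE4 and SUN4 overlapped. Because the genes were put together with this comparison known, nothing is read from that count. Replicate 2 of prion preSPO carried part of the size: leaving it out gave -1.60 for SCW4, -1.30 for SCW10 and -1.15 for SIM1, while leaving out prion preSPO replicate 1 gave -1.88, -1.40 and -1.69 for the same genes. For UTH1 the 2 values were -0.73 and -1.65, so its size rests on which prion preSPO library is used.

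**Figure D2:**
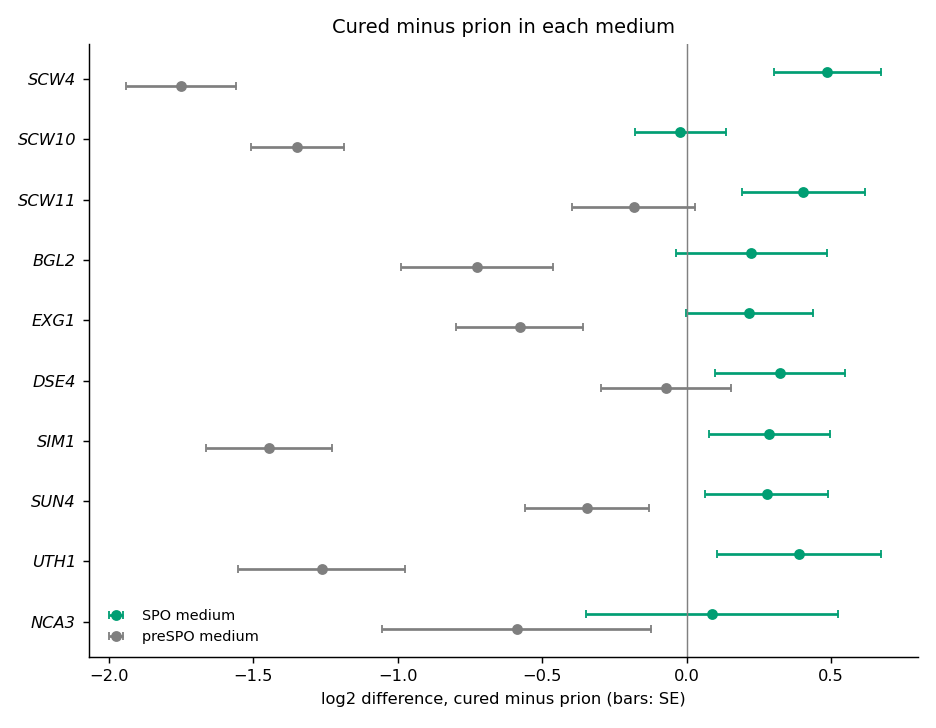
Log2 difference, cured minus prion, of each gene in SPO medium (green) and in preSPO medium (grey), with the SE of the edgeR fit as bars. In SPO medium the values lie between -0.02 and 0.49, and in preSPO medium all 10 lie below 0, from -1.75 for SCW4 to -0.07 for DSE4.

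The same comparison in SPO medium used other libraries and was tested. Cured SPO libraries were higher than prion SPO libraries without overlap for SCW4, SCW11, BGL2, SIM1 and UTH1, 5 of 10 genes, against 16.1% of all transcripts. The differences were 0.49 ± 0.184 for SCW4, 0.40 ± 0.214 for SCW11, 0.22 ± 0.261 for BGL2, 0.29 ± 0.211 for SIM1 and 0.39 ± 0.283 for UTH1. None of the 10 genes passed the test in edgeR's quasi-likelihood fit (adjusted p = 1 for each), where 0.0315% of all transcripts, 2 of them, did. At an unadjusted p under 0.05 the fit had 154 transcripts, or 2.43%, among them 1 of the 10 genes, SCW4, with an unadjusted p of 0.0272. DESeq2 called 15 transcripts and limma on log2(TPM + 1) called 10, with 0 of the 10 genes in either. The largest difference of the 10 genes in SPO medium, that of SCW4, was a fold of 1.40. In data simulated to test the scripts, the comparison of the states in SPO medium recovered 43% of 2-fold changes. There 100 genes were changed 2-fold and 100 genes 4-fold, and doubtful labels were not simulated. The real comparison had far fewer calls, so 43% is not the share that would be recovered here. Differences of 2-fold or less can be missed.

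The remaining values in SPO medium were -0.02 ± 0.157 for SCW10, 0.22 ± 0.220 for EXG1, 0.32 ± 0.225 for DSE4, 0.28 ± 0.213 for SUN4 and 0.09 ± 0.435 for NCA3. Of the 10 values 9 were above 0, and their median was 0.28, against 0.01 over all transcripts. On log2(TPM + 1), where the median of all transcripts was -0.23, the values of BGL2 (-0.04), EXG1 (-0.03) and NCA3 (-0.33) were below 0. Leaving out both libraries that MET17 sets against their labels left 1 SPO library a state, and the difference was then 0.50 for SCW4, 0.66 for SCW11, 0.25 for SIM1, 0.33 for UTH1, 0.73 for DSE4, 0.55 for SUN4, 0.02 for BGL2, -0.07 for EXG1, -0.15 for SCW10 and -1.11 for NCA3. The value of NCA3 rests on single libraries, since it was -0.86 when cured SPO replicate 1 was left out and 0.66 when replicate 2 was. Leaving out a prion SPO library gave 0.39 for replicate 1 and -0.17 for replicate 2. With 1 SPO library left out the difference ran from 0.021 to 0.56 for DSE4, from 0.11 to 0.42 for SUN4, from 0.046 to 0.40 for EXG1, from 0.23 to 0.55 for SCW11, from 0.088 to 0.34 for BGL2 and from 0.18 to 0.38 for SIM1. For SCW4 it ran from 0.43 to 0.53 and for UTH1 from 0.33 to 0.44.

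The medium was compared over both states at once, SPO minus preSPO, a contrast orthogonal to the preSPO difference between the states, although it uses the same preSPO libraries. In this mean of both states 6 of the 10 genes rose, 1 fell and 3 did not pass the test. Of all transcripts 34.2% rose, 34% fell and 68.2% passed in either direction. The median of the 10 genes was 0.43 on the log2 scale, and that of all transcripts was 0.02. NCA3 rose by 4.43 ± 0.359, a fold of 21.6 (adjusted p = 1.22e-05), and it was the only one of the 10 whose 4 SPO libraries all lay above its 4 preSPO libraries, as held for 29.3% of all transcripts.

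These are means over the states. For SCW4, SCW10, SIM1 and UTH1 the difference was above 0 in cured cells and at or below 0 in prion cells. BGL2 was at 1.12 ± 0.265 in cured and 0.17 ± 0.261 in prion cells. Of the genes called higher, only NCA3 was above 0 by more than its SE in both states, with values given further on. SIM1 rose by 0.84 ± 0.151 (adjusted p = 0.00105), BGL2 by 0.64 ± 0.186 (adjusted p = 0.0133) and UTH1 by 0.63 ± 0.201 (adjusted p = 0.0202). SCW4 rose by 0.51 ± 0.130 (adjusted p = 0.00730) and SCW10 by 0.35 ± 0.111 (adjusted p = 0.0207), both much less than NCA3. SCW11 fell by 0.59, with an SE of 0.151 (adjusted p = 0.00764). DSE4 at -0.38 ± 0.159 (adjusted p = 0.0580), EXG1 at -0.24 ± 0.155 (adjusted p = 0.197) and SUN4 at 0.05 ± 0.151 (adjusted p = 0.775) did not pass. DSE4 was lower and passed with DESeq2 (adjusted p = 0.0358), with library size alone (-0.69, adjusted p = 0.00248), on log2(TPM + 1) (-1.16, limma, adjusted p = 2.77e-05) and without cured SPO replicate 2 (-0.53, adjusted p = 0.0184). EXG1 was lower and passed with library size alone (-0.52, adjusted p = 0.0320) and on log2(TPM + 1) (-1.01, limma, adjusted p = 0.000234), and SUN4 on log2(TPM + 1) (-0.73, limma, adjusted p = 0.00437).

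The direction of 4 of these calls, and the call of SIM1, depend on the scale. On log2(TPM + 1) the median of all transcripts was itself -0.72 and 17.8% of the calls were rises, against 50.2% on the TMM scale and 35.6% with library size alone, where the median was -0.27. On that TPM scale SCW4 was at -0.29, SCW10 at -0.45, BGL2 at -0.14 and UTH1 at -0.13, all below 0, and the call of SIM1 was lost, at 0.0446 (limma, adjusted p = 0.881). Relative to the median of all transcripts the values on the TMM and TPM scales were 0.49 and 0.43 for SCW4, 0.33 and 0.28 for SCW10, 0.63 and 0.58 for BGL2, 0.62 and 0.59 for UTH1, 0.83 and 0.77 for SIM1, -0.60 and -0.62 for SCW11 and 4.41 and 4.15 for NCA3.

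The calls of SCW4, SCW11, SIM1 and NCA3 held whichever single library was left out. Those of SCW10, BGL2 and UTH1 were all lost without cured preSPO replicate 2, where 3 genes rose. SCW10 was also lost without cured SPO replicate 1 or prion SPO replicate 1, and UTH1 without either prion SPO library. Without both libraries that MET17 sets against their labels 3 genes rose, SCW4, SIM1 and NCA3, and none fell, with SCW11 at -0.57 and an adjusted p of 0.0507.

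**Figure D3:**
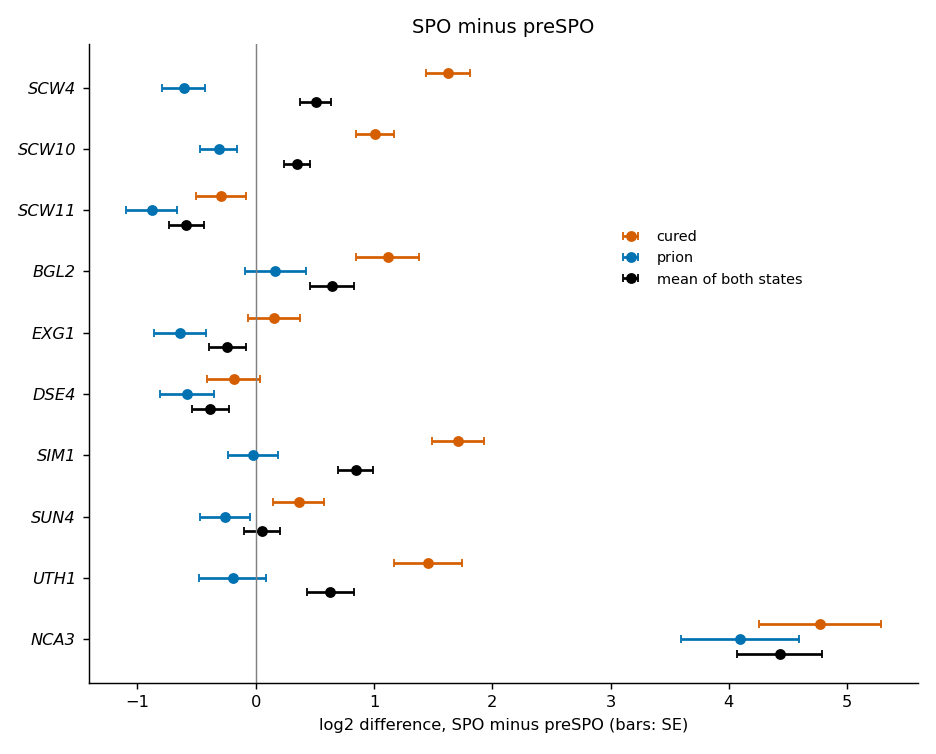
Log2 difference, SPO minus preSPO, of each gene in cured cells (orange), in prion cells (blue) and as the mean of both states (black), with the SE of the edgeR fit as bars. NCA3 lies near 4 to 5 in both states, and SCW4 and SCW10 lie above 0 in cured cells and below 0 in prion cells.

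Taken state by state, the medium difference was larger in cured than in prion cells for all 10 genes, values that share the preSPO libraries by which the genes were known and are not tested. SCW4 was 1.63 ± 0.188 in cured and -0.61 ± 0.184 in prion cells, and SCW10 was 1.01 ± 0.160 in cured and -0.31 ± 0.157 in prion cells. SIM1 was 1.71 ± 0.219 in cured and -0.02 ± 0.211 in prion cells, and UTH1 was 1.46 ± 0.289 in cured and -0.19 ± 0.283 in prion cells. For SCW4 and SCW10 both prion SPO libraries lay below both prion preSPO libraries. For SIM1 and UTH1 the prion preSPO libraries lay on either side of both prion SPO libraries. They were at 69 and 101 CPM for SIM1 and at 317 and 599 CPM for UTH1. The cured libraries of these 4 genes were higher in SPO.

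BGL2 was 1.12 ± 0.265 in cured and 0.17 ± 0.261 in prion cells, EXG1 was 0.16 ± 0.220 in cured and -0.64 ± 0.220 in prion cells, and SUN4 was 0.36 ± 0.214 in cured and -0.26 ± 0.213 in prion cells. SCW11 and DSE4 were negative in both states, at -0.29 ± 0.213 and -0.19 ± 0.225 in cured and at -0.88 ± 0.215 and -0.58 ± 0.225 in prion cells. NCA3 was 4.77 ± 0.516 in cured and 4.09 ± 0.500 in prion cells, high in both. Its level in the 4 SPO libraries had the same order as the summed late spore wall markers, mostly SPS100, which were 2478 and 1245 CPM in cured SPO and 1845 and 1363 CPM in prion SPO libraries. The part of that marker sum in the NCA3 values was not tested.

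Levels of different genes were compared per length, as TPM, the deposited length-scaled unit. BGL2 ranked 1 or 2 of the 10 in every library. NCA3 ranked from 1 to 4 in the SPO libraries and 10 in all 4 preSPO libraries. DSE4 ranked 10 in 3 of the 4 SPO libraries. The 10 genes together made up 987 and 525 TPM in cured SPO, 815 and 631 TPM in prion SPO libraries, 692 and 486 TPM in cured preSPO and 974 and 1111 TPM in prion preSPO libraries. SCW4 held 14.6% and 19.4% of that sum in cured SPO, 14.0% and 14.9% in prion SPO, 12.8% and 14.1% in cured preSPO and 25.2% and 21.6% in prion preSPO libraries, so its share was highest in prion cells at saturation.

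**Figure D4:**
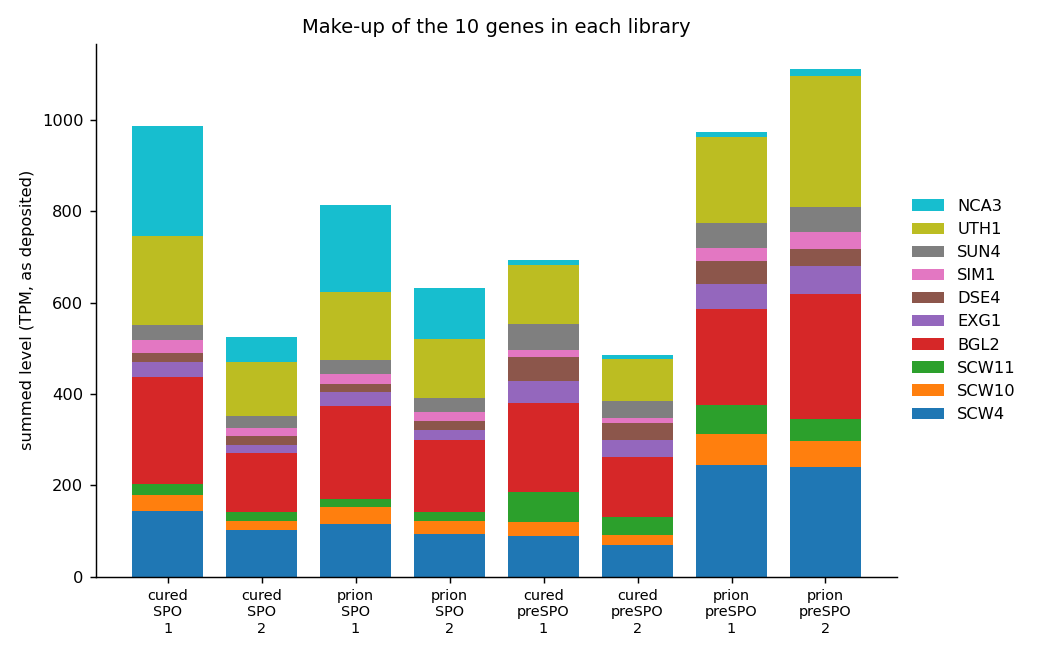
Summed TPM, as deposited, of the 10 genes in each library, with each gene's part stacked. The NCA3 segment is wide in the 4 SPO bars and thin in the 4 preSPO bars, and the tallest bar, 1111 TPM, is prion preSPO replicate 2.

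Paralogs within the set did not keep a fixed ratio. The ratio of SCW4 to SCW10 in TPM was 4.20 and 4.86 in cured SPO, 3.09 and 3.27 in prion SPO libraries, 2.90 and 3.00 in cured preSPO and 3.65 and 4.13 in prion preSPO libraries, lowest in cured cells at saturation. The ratio of SIM1 to SUN4 was 0.881 and 0.618 in cured SPO, 0.758 and 0.701 in prion SPO, 0.282 and 0.297 in cured preSPO and 0.571 and 0.651 in prion preSPO libraries. SIM1 was thus below SUN4 in all 8, and furthest below it in cured preSPO. The ratio of UTH1 to NCA3 was 0.805 and 2.13 in cured SPO, 0.783 and 1.16 in prion SPO libraries, 13.0 and 10.1 in cured preSPO and 16.1 and 19.8 in prion preSPO libraries, so UTH1 was on either side of NCA3 in SPO medium and far above it at saturation.

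The coding sequences of these pairs are alike but can be told apart by short reads. Aligned end to end, identity was 69.2% for SIM1 and SUN4, 68.3% for SCW4 and SCW10 and 67.7% for UTH1 and NCA3. At most 0.177% of the 31-base words of any of the 10 occurred in another coding sequence, 2 of 1131 for SCW4, 2 of 1140 for SCW10 and 1 of 1401 for SIM1. None of the 10 coding sequences overlaps another in the RefSeq annotation of build R64, and each is 1 uninterrupted coding exon. SCW4 (chrVII:1048798-1049958, minus strand) and BGL2 (chrVII:1057783-1058724, minus strand) lie 7824 bases apart with 2 coding genes between them, SIM1 is at chrIX:128151-129581 on the plus strand and NCA3 at chrX:193860-194873 on the minus strand.

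The 300 bases before the start codon were read from the RefSeq sequence of build R64 for 9 of the genes, SCW4 left out. The 2 windows with a match to CGCGAAA, the only form of the SBF site that was searched, are printed. They are shown because SBF is known to drive wall genes of the G1 phase, and because SIM1 and SUN4 are the closest pair by coding sequence. Capitals mark CGCGAAA, that form of the SBF site, on either strand, and each sequence runs 5′ to 3′ on the strand of its gene. Other forms of the site are not marked. SIM1 is chrIX:127851-128150 and SUN4 is chrXIV:501215-501514, both on the plus strand.
SIM1: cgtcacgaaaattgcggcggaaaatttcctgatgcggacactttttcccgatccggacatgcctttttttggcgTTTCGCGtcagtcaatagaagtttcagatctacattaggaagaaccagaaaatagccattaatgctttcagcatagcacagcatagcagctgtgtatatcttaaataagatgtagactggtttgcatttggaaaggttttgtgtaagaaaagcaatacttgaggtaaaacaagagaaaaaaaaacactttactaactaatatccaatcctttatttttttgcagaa
SUN4: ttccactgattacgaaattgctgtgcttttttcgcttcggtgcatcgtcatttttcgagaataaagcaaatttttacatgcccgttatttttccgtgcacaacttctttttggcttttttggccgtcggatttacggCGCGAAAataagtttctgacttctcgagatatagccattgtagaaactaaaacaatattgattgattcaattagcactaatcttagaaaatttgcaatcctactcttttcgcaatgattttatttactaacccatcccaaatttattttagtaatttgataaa

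CGCGAAA occurred in 2 of the 9 windows, in SIM1 226 to 220 and in SUN4 163 to 157 bases before the start codon, and in 3.95% of 5994 such windows genome-wide. SIM1 and SUN4 share this motif, while SIM1 was at -1.45 and SUN4 at -0.34 in preSPO medium, cured minus prion. Of the other motifs, each searched on both strands, CACAAA, the core of the middle sporulation element, was found in 1 window (SIM1) against 19.1% of all, and TATAAA in 3 (SCW10, BGL2 and DSE4) against 48.2%. ACGCGT, the MBF site, which shares bases with the SBF site, and AGGGG, the stress response element, were in none of the 9, against 3.49% and 22.2% of all windows. NCA3, whose level moved most with the medium, held no match to any of the 5 motifs. Only these exact letters were searched, so a window without a match may hold another form of a site.

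**Figure D5:**
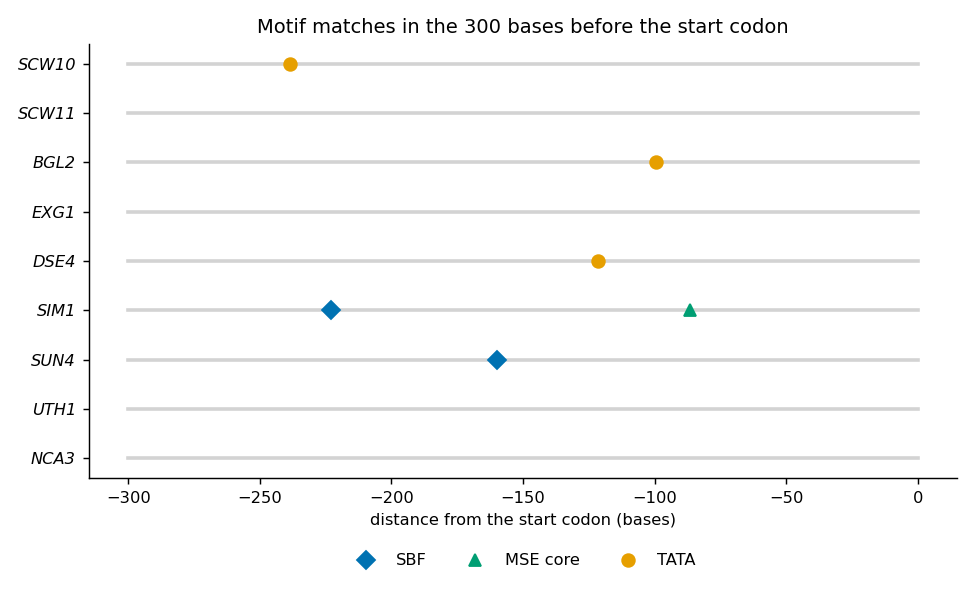
Position of each motif match in the 300 bases before the start codon of 9 of the genes, as distance from the start codon in bases, with a symbol for each motif. SIM1 and SUN4 hold CGCGAAA, the only form of the SBF site searched, and SCW10, BGL2 and DSE4 the TATA motif. SCW11, EXG1, UTH1 and NCA3 have no match to the exact letters searched. Other forms of a site are not shown.

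Vts1 binds RNA hairpins whose loop opens with CNGG, so the coding sequences were searched for a stem of 5 base pairs around a loop of 4 or 5 bases with that start, with G-U pairs allowed. SIM1 and DSE4 held 1 each, printed with the loop in capitals and as DNA letters of the coding strand. The SIM1 loop begins at base 1229 of its coding sequence on chromosome IX and the DSE4 loop at base 2531 of its coding sequence on chromosome XIV, whose stem holds 2 G-U pairs.
SIM1 hairpin: ctccaCTGGtggag
DSE4 hairpin: cagttCAGGAgattg

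Such a hairpin was present in 2 of the 10 genes and in 18.5% of 6014 coding sequences, or 0.139 per kilobase in the 10 genes and 0.145 per kilobase in all. SIM1, with a hairpin, was at -1.45 in preSPO medium, cured minus prion, DSE4, also with one, at -0.07, and SCW4, with none, at -1.75. A match is a description of the letters and no measure of binding.

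For each of the 10, the genes with the most similar course over the 8 libraries were taken from 4842 other genes by the root mean square (RMS) difference of centred log2 CPM. SCW4 was nearest to BSC1 (RMS 0.208), TUB2 (beta-tubulin, RMS 0.214) and CIS3 (a PIR wall protein, RMS 0.252). SIM1 was nearest to CIS3 (RMS 0.187), TUB2 (RMS 0.199) and SRL1 (a wall mannoprotein, RMS 0.217), and UTH1 to SRL1 (RMS 0.132), PRM7 (RMS 0.141) and SML1 (a ribonucleotide reductase inhibitor, RMS 0.152). CIS3 and TUB2 were thus among the 3 nearest genes of both SCW4 and SIM1. SCW10 was nearest to SSO2 (RMS 0.122), STM1 (RMS 0.181) and HHF1 (histone H4, RMS 0.187).

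SCW11 was nearest to RGS2 (RMS 0.109), TRA1 (RMS 0.118) and STE20 (RMS 0.144), and DSE4 to IRC10 (RMS 0.0889), RPL30 (RMS 0.112) and STE20 (RMS 0.121). BGL2 was nearest to TSL1 (a trehalose synthase subunit, RMS 0.0927), GAL10 (RMS 0.0928) and POL1 (RMS 0.101), EXG1 to UGP1 (RMS 0.0969), BUD3 (RMS 0.105) and GAS5 (a glucan elongation enzyme, RMS 0.110), and SUN4 to ITR2 (RMS 0.103), TCB3 (RMS 0.108) and SSE2 (RMS 0.112). NCA3, with the widest range, was nearest to PHM7 (RMS 0.361), MSC1 (RMS 0.378) and TAT1 (RMS 0.393), with a Pearson r over the 8 libraries of 0.996, 0.987 and 0.984 in that order, points that share 2 media. Within the set the closest pairs were SCW11 and DSE4 (RMS 0.139), SIM1 and UTH1 (RMS 0.163), BGL2 and UTH1 (RMS 0.204), SCW4 and SIM1 (RMS 0.251) and SCW4 and SCW10 (RMS 0.253), and NCA3 was the farthest from every other, at an RMS of 1.81 to 2.53.

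Other wall genes moved with the medium in both directions, given as SPO minus preSPO over both states and set against 34.2% of all transcripts that rose and 34% that fell. The shares called lower in the lists of glucan synthesis, elongation, chitin and integrity genes were near that background, and nothing is read from them. Of 10 other genes of daughter separation 2 rose and 6 fell, with a median of -0.71, and among them DSE1 was at -1.88, SWI5 at -1.38 and AMN1 at -0.90 while CTS1, the chitinase that also opens the septum, was at 1.43. DSE4 and SCW11, the members expressed in daughters, were at -0.38 and -0.59. The 3 other glucanases of the same enzyme families all passed, with SPR1, the sporulation-specific exoglucanase, at 1.48 and ACF2 and EXG2 at -1.25 and -0.88. Of 15 genes of glucan synthesis and assembly 3 rose and 5 fell, with KNH1 at 2.74 and GSC2, the glucan synthase subunit used in sporulation, at 1.98, and SMI1 at -1.81 and FKS1, the subunit used in growth, at -0.90.

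Of 8 genes that elongate or cross-link glucan 1 rose, CRR1, a spore wall transglycosylase, at 3.60, and 3 fell, GAS1 at -1.32, GAS3 at -1.25 and UTR2 at -0.95. Of 10 chitin genes 2 rose and 4 fell, with the spore wall chitin deacetylase CDA1 at 5.98 and CTS2, CHS1 and SKT5 at -2.14, -1.17 and -1.24. Of 14 genes of the cell wall integrity pathway 5 rose and 4 fell, among them SLT2, its MAP kinase, at -1.54, SWI6 at -1.11, MID2 at -1.03 and WSC2 at 0.95. The medians of these 4 lists were -0.01 for glucan synthesis, -0.30 for elongation, -0.38 for chitin and -0.04 for the integrity pathway, against 0.43 for the 10 genes and 0.02 for all transcripts. On log2(TPM + 1), where 57.8% of all transcripts were called lower, the counts were 9 of 15 lower for glucan synthesis, 7 of 8 for elongation, 8 of 10 for chitin, 8 of 14 for the integrity pathway and 8 of 10 for daughter separation. In SPO medium, cured against prion, no gene of any of these lists passed the test.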

How the data were processed

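Libraries and groups follow the labels. Transcripts were quantified with kallisto against build R64, per the submitters' processing notes; no version is named there. The deposited files hold estimated counts and TPM for each of 6713 transcripts. Estimated counts were rounded to whole numbers, since kallisto's deposited expected counts need not be whole, and TPM values were used as deposited. R 4.3.3, edgeR 4.0.16 (TMM, filterByExpr, quasi-likelihood F-test, no covariates), limma 3.58.1 and DESeq2 1.42.0 were used. Calls were made at a Benjamini-Hochberg adjusted p under 0.05 over 6346 transcripts. CPM were TMM-normalised, and a floor of 3 counts was 0.0551 to 0.68 CPM by library, covering counting error only. The scripts were tested on simulated data.

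Of the transcripts, 6026 (89.8%) matched a RefSeq symbol, and 6711 lengths are multiples of 3, so lengths are coding lengths. Every gene of the set is named. From each pathway list up to 4 genes with the smallest p for the medium over both states are named, and for each gene of the set the 3 nearest others with a mean of at least 10 CPM. MET17 bears on the labels. One promoter window, a motif and a gene of a pathway list are not reported here. The genes, the lists and the tests were chosen with earlier results of these data known. No p-value is given for comparisons that use the difference by which the genes were known.

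The labels take the preSPO and the SPO library with the same state and number from a shared culture. Their deviations from the group means correlated by 0.316 in cured and 0.0714 in prion cells, and MET17 goes against this pairing. That the replicates are separate cultures rests on the labels. Library pairs of one group differed beyond sampling noise (chi-square per degree of freedom 34.7 to 163). Alternatives were RLE or library size scaling, no filter, DESeq2, limma on log2(TPM + 1) and log2(TPM + 0.1), replicate blocks, each library left out and, added after the data were seen, both doubtful SPO libraries left out.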

Additional observations from a re-analysis of the deposited data

Results flagged for a closer look

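SCW4, SCW10, BGL2, SIM1 and UTH1 moved in opposite directions under the same comparison in 2 groups, with every library of one group on one side and every library of the other on the opposite side. SCW4 did so for the medium: both cured SPO libraries were above both cured preSPO libraries, and both prion SPO libraries were below both prion preSPO libraries. It did so for the state as well, cured being higher than prion in SPO and lower in preSPO medium. The SPO minus preSPO difference of SCW4 was 2.24 larger on the log2 scale in cured than in prion cells, which is the same quantity as its state difference in SPO minus that in preSPO medium. SCW10 did so for the medium, by 1.32.

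BGL2, SIM1 and UTH1 did so for the state, with differences between the media of 0.95 for BGL2, 1.73 for SIM1 and 1.65 for UTH1. Over all transcripts 202 (3.18%) moved in opposite directions with the medium and 563 (8.87%) with the state. None of these differences was tested, because each uses the preSPO comparison by which the genes were known. All of them, on the medium and on the state, also use cured SPO replicate 1 and prion SPO replicate 2, the 2 libraries whose MET17 counts go against their labels.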

How the results depend on the processing

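In the mean of both states 6 of the 10 genes rose and 1 fell with the medium. Of those called higher, only NCA3 was above 0 by more than its SE in each state. With library size scaling 2 rose and 3 fell, on log2(TPM + 1) and on log2(TPM + 0.1) 1 rose and 4 fell, with DESeq2 2 fell, and without both SPO libraries that go against their labels 3 rose and 0 fell. With each library left out in turn 3 to 6 rose and 1 to 2 fell. On log2(TPM + 1) and log2(TPM + 0.1) the direction turned for SCW4 (-0.29 and -0.29), SCW10 (-0.45 and -0.45), BGL2 (-0.14 and -0.14), UTH1 (-0.13 and -0.13) and SUN4 (-0.73 and -0.75). SUN4 was at -0.25 with library size scaling and from -0.0411 to 0.155 with a library left out. The median of all transcripts was itself shifted on those scales, at -0.72 and -0.78 on TPM and -0.27 with library size. The cause of that shift was not tested.

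For cured minus prion in SPO medium the 2 calls over all transcripts became 4 with library size scaling, 15 with DESeq2, 10 and 8 on log2(TPM + 1) and log2(TPM + 0.1), 11 without both doubtful libraries and 2 to 11 with a library left out. The sign turned on log2(TPM + 1) and log2(TPM + 0.1) for BGL2 (-0.0406 and -0.0411), EXG1 (-0.0331 and -0.0354) and NCA3 (-0.33 and -0.33), with library size scaling for NCA3 (-0.0220) and without both doubtful libraries for EXG1 (-0.0659) and NCA3 (-1.11). With a library left out NCA3 ranged from -0.86 to 0.66 and SCW10 from -0.0986 to 0.0504. The cause was not tested.

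For cured minus prion in preSPO medium the 59 calls over all transcripts became 441 with DESeq2, 94 on log2(TPM + 1), 142 with a replicate block on the number, 10 without both doubtful libraries and 0 to 466 with a library left out. The share of these calls that were higher in cured was 49.2%, against 65.4% with library size, 39.2% with DESeq2 and 71.3% and 75% on the 2 TPM scales. With the culture as a replicate block the medium gave 4551 calls, against 4328 without it, with 6 of the 10 genes higher and 1 lower in both fits, and in SPO medium a block on the replicate number gave 3 calls and none of the 10 genes. The replicate blocks changed no other call on the 10 genes.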
